A study of Mus musculus with 14 samples.

Results

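Gene expression in the hippocampus of C57BL/6 mice was compared between animals depleted of TRF2 and control animals, gene by gene, in 9824 genes. These are the genes that the authors tested in this comparison and that reached at least 1 FPKM in 1 of the groups. FPKM is a read count scaled to transcript length and to library size. The 9824 genes were taken from 26348 coding-sequence rows of 20492 genes, and 10150 genes were tested in either tissue of the study. Where a gene had several tested rows, the row with the highest mean level stands for it. The log2 ratio of TRF2-depleted over control was computed from the deposited levels.

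Total RNA was sequenced from 3 control and 3 TRF2-depleted hippocampus samples and from 4 control and 3 TRF2-depleted cortex samples, all from mice aged 3 months. The design text names the cohorts as wild type and as TRF2-DCX-cre. Dcx encodes doublecortin, a microtubule protein of young neurons, so a Cre under its control acts in cells that have expressed it and in their progeny. Alleles of the control animals and the sex of any animal are not stated in the labels. A further TRF2 sample (1) has a hippocampus title and a cortex tissue tag; it was placed in no group, and whether the deposited values include it is not known. The authors' deposited table gives 1 pooled level per group, so no value per sample and no SD can be shown, the overlap of the groups cannot be seen, and the read depth is unknown. Spread between samples enters only through the authors' own Cuffdiff p and q. Samples are not tied to animals in the labels, so that spread may be technical. A gene was called, and is said to have risen or fallen, at a deposited q of 0.05 or less.

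TRF2, encoded by Terf2, is a subunit of shelterin, the complex that coats telomeres and keeps chromosome ends from being read as broken DNA. Per its title, the study asks how far neurons rely on working telomeres. The hippocampus holds the pyramidal neurons of the CA fields and the granule neurons of the dentate gyrus, which send mossy fibres to CA3. The dentate gyrus is also a place where neurons are born in the adult mouse. Markers of both neuron types were present in control samples, with Prox1 of granule neurons at 4.88 FPKM and Neurod6 of pyramidal neurons at 50.8. A dissected hippocampus can carry strips of choroid plexus, meninges and thalamus, its neighbours.

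The targeted gene was low in both groups. Terf2 (chr8:107069400-107096545 in mm10) has 3 coding-sequence rows, and the authors tested 0 of them. Its first row was 1.04 FPKM in control and 0.526 in TRF2-depleted hippocampus, the second 0.516 and 0.179, and the third 0.455 and 0.179. Summed over rows the level was 2.01 against 0.883 FPKM, a log2 ratio of -1.19, and all rows were lower in the group labelled TRF2-depleted. The other shelterin genes were measured for 5 members, and 0 of them had a deposited p under 0.05. Their log2 ratios ran from -0.45 for Terf1, the TRF2-related telomere binding protein, to 0.07 for Tinf2, the bridge between the DNA-binding subunits. Terf2ip, which binds TRF2 itself, stood at -0.02.

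Few of the 9824 genes passed the threshold. The authors' Cuffdiff q was 0.05 or less for 18 genes (0.183% of those tested), with 6 higher in TRF2-depleted hippocampus (0.0611%) and 12 lower (0.122%). All 18 carry the smallest p that the deposited table holds, 5e-05, and the same q of 0.0301. An unadjusted p under 0.05 was deposited for 512 genes (5.21%), of which 251 were higher (2.55%) and 261 lower (2.66%). Across all genes 4939 were higher and 4885 lower, with a median log2 ratio of 0.00 and quartiles of -0.17 and 0.17. The members of any list below are read against these shares and this median.

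**Figure D1:**
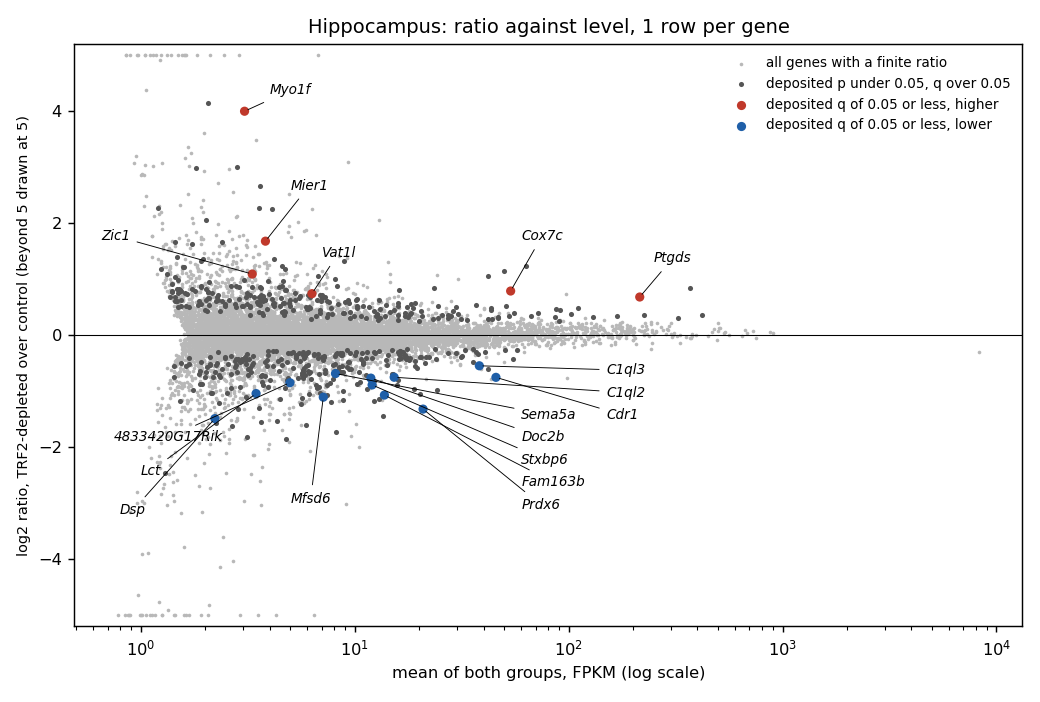
Log2 ratio of TRF2-depleted over control (vertical) against the mean of both groups in FPKM (log scale) for each gene with a finite ratio. Red and blue points are the 6 genes called higher and the 12 called lower, and the cloud widens toward low levels, from a central 95% of -0.16 to 0.34 at 100 FPKM or more to -2.25 to 2.04 below 3 FPKM.

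Of the 12 genes that fell, 7 are markers of dentate granule neurons. Dsp, which encodes desmoplakin, the protein that anchors desmosomes to intermediate filaments, fell by 64.5%, from 3.27 FPKM in control to 1.16 in TRF2-depleted hippocampus. Fam163b fell by 52.5%, from 18.6 to 8.87 FPKM. Lct, the lactase gene and a granule neuron marker within the hippocampus, fell from 4.66 to 2.26 FPKM. Stxbp6 encodes amisyn, a syntaxin-binding protein that competes in the assembly of vesicle fusion complexes. Its level fell from 15.7 to 8.44 FPKM, a log2 ratio of -0.89. C1ql2 and C1ql3 encode secreted C1q-like proteins that granule neurons release at their synapses. C1ql2 fell from 19.2 to 11.4 FPKM and C1ql3 from 45.4 to 31.0 FPKM, the latter with a log2 ratio of -0.55 that is the smallest change called. Sema5a, a transmembrane semaphorin that guides axons and limits granule neuron synapses, fell from 10.03 to 6.22 FPKM.

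The dentate list as a whole was mostly lower. Of 26 genes on the list 20 were measured: 18 were lower and 2 higher, 7 were called, all lower, and 11 had a deposited p under 0.05, all lower (55%, against 5.21% of all genes). Their median log2 ratio was -0.62, against 0.00 for all genes, and their summed level went from 202 to 138 FPKM. Prox1, the transcription factor that gives granule neurons their identity, was 4.88 in control and 1.38 in TRF2-depleted hippocampus, a log2 ratio of -1.82 with a deposited q of 0.0764. Calb1, the calcium buffer calbindin, was 24.5 and 18.7 FPKM, with a deposited p of 0.0055. Maml2, a Notch coactivator, and Glis3, a zinc finger factor, had ratios of -0.46 and -0.54 with p of 0.0094 and 0.018. The list was drawn up with earlier results of these data known, so its share of called genes is no independent evidence. In bulk tissue, fewer cells of a type and less RNA per cell cannot be told apart. The members higher in TRF2-depleted hippocampus were Dgkh and Ntng1, at log2 ratios of 1.18 and 0.47 and with p = 0.127 and p = 0.406 in the authors' deposited table. The 6 members without a tested row were low, and 4 of them were higher in TRF2-depleted hippocampus, against the direction of the list. Pdzd2 was 0.103 and 0.780 FPKM, Cntnap5a 0.119 and 0.632, and Plk5 0 and 0.486, while Penk was near 0 in both groups. Tdo2 was 1.53 and 1.09 and Il16 0.859 and 0.634.

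The promoters of called dentate genes are shown because these genes moved together. The 250 bases before the annotated start are given for 4 of the 7, 5′ to 3′ on the gene's strand, from RefSeq GRCm38.p6, with capitals on each E-box, CANNTG, the general motif of basic helix-loop-helix factors, a pattern that reads the same on both strands. The windows are chr2:27142478-27142727 (minus strand) for Fam163b, chr1:128328319-128328568 (minus) for Lct, chr12:45074484-45074733 (minus) for Stxbp6 and chr1:120340332-120340581 (plus) for C1ql2.
Fam163b: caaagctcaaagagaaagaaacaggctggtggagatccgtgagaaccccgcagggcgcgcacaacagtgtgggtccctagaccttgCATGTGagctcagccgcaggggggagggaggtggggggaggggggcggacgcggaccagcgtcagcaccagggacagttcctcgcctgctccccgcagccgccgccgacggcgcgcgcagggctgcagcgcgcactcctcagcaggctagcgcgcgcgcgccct
Lct: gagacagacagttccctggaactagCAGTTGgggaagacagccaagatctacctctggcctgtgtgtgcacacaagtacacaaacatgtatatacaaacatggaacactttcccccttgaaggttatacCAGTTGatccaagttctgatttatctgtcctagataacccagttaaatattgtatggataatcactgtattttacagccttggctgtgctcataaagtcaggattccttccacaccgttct
Stxbp6: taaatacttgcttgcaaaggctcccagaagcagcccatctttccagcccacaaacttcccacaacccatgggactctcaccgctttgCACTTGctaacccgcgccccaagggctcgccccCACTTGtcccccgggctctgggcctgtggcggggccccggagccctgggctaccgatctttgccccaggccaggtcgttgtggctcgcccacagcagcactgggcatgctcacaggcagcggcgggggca
C1ql2: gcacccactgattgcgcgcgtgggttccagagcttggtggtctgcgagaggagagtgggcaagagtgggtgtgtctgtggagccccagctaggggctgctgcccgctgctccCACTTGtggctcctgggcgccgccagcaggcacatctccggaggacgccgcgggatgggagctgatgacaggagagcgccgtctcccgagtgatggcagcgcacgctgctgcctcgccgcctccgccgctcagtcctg
Lct and Stxbp6 hold 2 matches each, and Fam163b and C1ql2 hold 1. In all, 5 of the 7 called dentate genes hold a match. Among those not printed, C1ql3 holds 1 and Dsp and Sema5a hold 0, so the printed windows are all ones with a match. The motif is short and common: 66.0% of all 27025 RefSeq promoter windows of this length hold it, and 55.2% of those of measured genes.

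Other neurons of the hippocampus gave other counts. CA pyramidal markers, 24 measured of 26, had a median log2 ratio of 0.03, with 14 higher, 10 lower and 0 called. Crym, a thyroid hormone binding protein of these cells, was 76.9 FPKM in control and 96.4 in TRF2-depleted hippocampus. Chgb, a granule protein of secretory vesicles, was 54.9 and 45.4 FPKM. These were the members with p under 0.05, 1 in each direction. Neurod6, a transcription factor of pyramidal neurons, was 50.8 and 49.5 FPKM. Genes of newborn neurons, 16 measured of 20, were 8 higher and 8 lower with a median of -0.03, which was 0.03 among those with at least 5 FPKM in 1 group. Neurod1, which drives granule neuron differentiation, was the member with the smallest p, at 7.04 and 4.77 FPKM (p = 0.00305, from the authors' deposited table). The 4 members without a tested row were low, with 1 higher and 3 lower. Dcx itself, the source of the Cre driver, was the higher one, at 1.36 against 1.43 FPKM. Igfbpl1 was 0.422 and 0.348, Eomes 0.143 and 0.0902, and Draxin 0.0867 and 0.0275.

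Markers of excitatory and inhibitory neurons leaned in opposite directions without a called member in either list. Of 23 glutamatergic genes 20 were lower, with a median of -0.14 and a single p under 0.05, that of Neurod2 (30.2 against 24.1 FPKM), a factor of maturing excitatory neurons. The vesicular glutamate transporter Slc17a7 was 239 and 235 FPKM. Of 22 GABAergic genes 15 were higher, with a median of 0.13. The 3 with p under 0.05 were all higher: Maf, a factor of somatostatin and parvalbumin interneurons, at 2.25 and 3.53 FPKM, the vesicular transporter Slc32a1 at 15.9 and 20.6, and the GABA-producing enzyme Gad2 at 20.8 and 25.5. The other 7 GABAergic genes were lower, among them Dlx6 at 2.52 and 1.27 FPKM and Lhx6 at 2.04 and 1.13, without a p under 0.05. In cortex the lists leaned the same way, with 16 of 23 glutamatergic genes lower and 12 of 18 GABAergic genes higher. Whether the lists differ from each other was not tested.

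**Figure D2:**
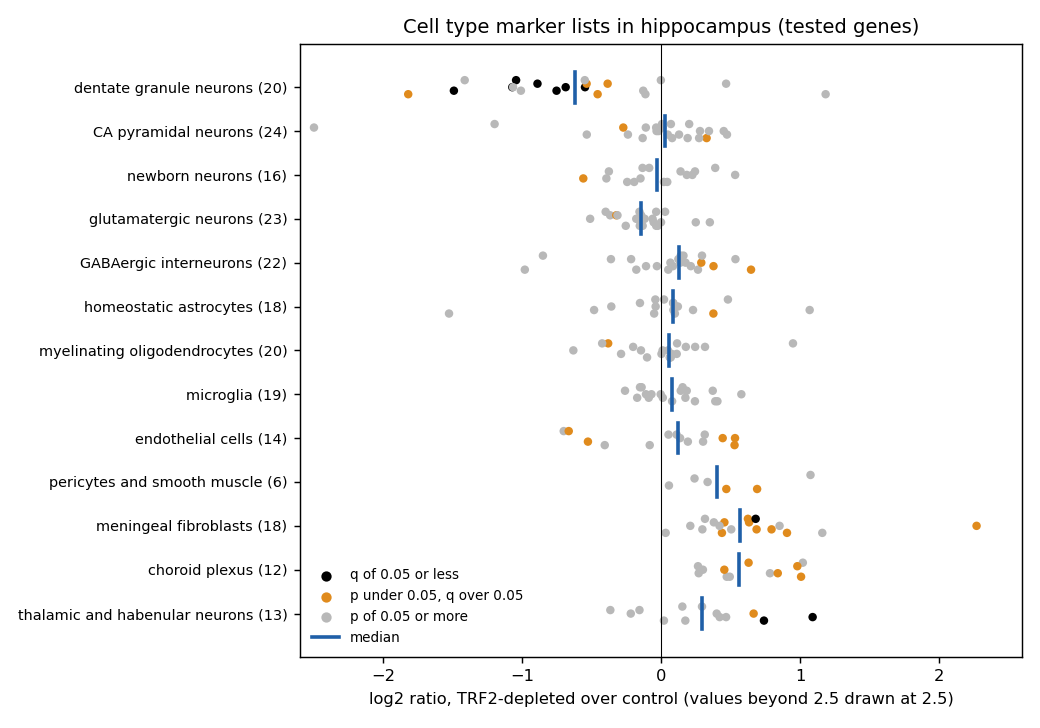
Log2 ratio of TRF2-depleted over control for each tested member of 13 cell type marker lists, 1 point per gene, with the number of members measured in parentheses and the median as a blue bar. Dentate granule markers lie mostly left of 0 with a median of -0.62, while all tested meningeal and choroid plexus markers lie right of 0 with medians of 0.56.

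The other genes that fell belong to no single list. Prdx6, a peroxiredoxin that reduces peroxidised phospholipids, fell by 60.03%, from 29.8 to 11.9 FPKM (chr1:161240112-161251166). It has a near-identical copy elsewhere in the mouse genome, and how the authors assigned shared reads is not stated in the sources. None of the other peroxiredoxins was called: Prdx1 was 54.5 and 49.1 FPKM, Prdx2 91.8 and 100.5, Prdx3 19.9 and 22.3, Prdx4 4.62 and 4.87, and Prdx5 64.6 and 79.9. Among 28 measured thiol antioxidant genes, Prdx6 was the single call. Doc2b, a calcium sensor for spontaneous and asynchronous vesicle release, fell from 15.0 to 8.79 FPKM (chr11:75769090-75796057) and was the single call among 40 vesicle release genes, whose median was 0.02. Syt17 of that list, a synaptotagmin family member, was 12.2 and 5.45 FPKM, with p under 0.05. Cdr1 fell from 57.4 to 34.0 FPKM (chrX:61183246-61185558); a circular RNA is made from the opposite strand of this locus, and since the library kit is not described as keeping strand, the reads of both cannot be told apart. Mfsd6 and 4833420G17Rik fell from 9.74 to 4.51 and from 6.40 to 3.55 FPKM.

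The 6 genes that rose differ widely in level. Ptgds encodes the prostaglandin D2 synthase of meninges, choroid plexus and oligodendrocytes, which is secreted into the cerebrospinal fluid. It rose by 60.2%, from 165 to 265 FPKM. Cox7c, a subunit of cytochrome c oxidase, rose by 72.5%, from 39.3 to 67.8 FPKM. It is a short gene with processed copies in the genome, and its share of their reads is uncertain. Zic1, a zinc finger factor of thalamus, septum and meninges, rose from 2.12 to 4.51 FPKM. Vat1l rose from 4.73 to 7.89 FPKM. Mier1, a corepressor that recruits histone deacetylases, rose from 1.82 to 5.83 FPKM in its main row. A second tested row of Mier1 went the other way, from 2.52 to 0.332 FPKM (p = 0.223, from the authors' deposited table), and the sum over 4 rows was 4.395 against 6.23, a log2 ratio of 0.50 in place of 1.68.

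Myo1f had the largest ratio of the called genes. This unconventional myosin of myeloid cells stood at 0.360 FPKM in control and 5.75 in TRF2-depleted hippocampus (chr17:33555707-33607764), a log2 ratio of 4.00. Its control level lies under 1 FPKM, so the ratio rests on a small denominator. Myo1d was the single other class I myosin tested, at 1.73 and 1.88 FPKM. Of the microglial markers, 0 of 19 measured had a deposited p under 0.05, their median was 0.08 and their summed level was 161 against 169 FPKM. Csf1r, the receptor that microglia need to survive, was 11.8 and 10.7 FPKM. Markers of other leukocytes were mostly without a tested row. The 2 tested, of 20, were higher, without a p under 0.05: the class II invariant chain gene Cd74 at 0.693 and 1.98 FPKM and the lysozyme gene Lyz2 at 2.02 and 2.77. Of the 18 untested, 13 were higher and 2 lower, among them the neutrophil gene S100a8 at 0 and 1.11 and the class II gene H2-Aa at 0.3997 and 1.21. Summed over all rows the list was 5.57 against 10.9 FPKM, while Cd8a and Ly6c2 were listed at 0 in both groups. The part of these cells in the Myo1f rise was not tested.

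**Figure D3:**
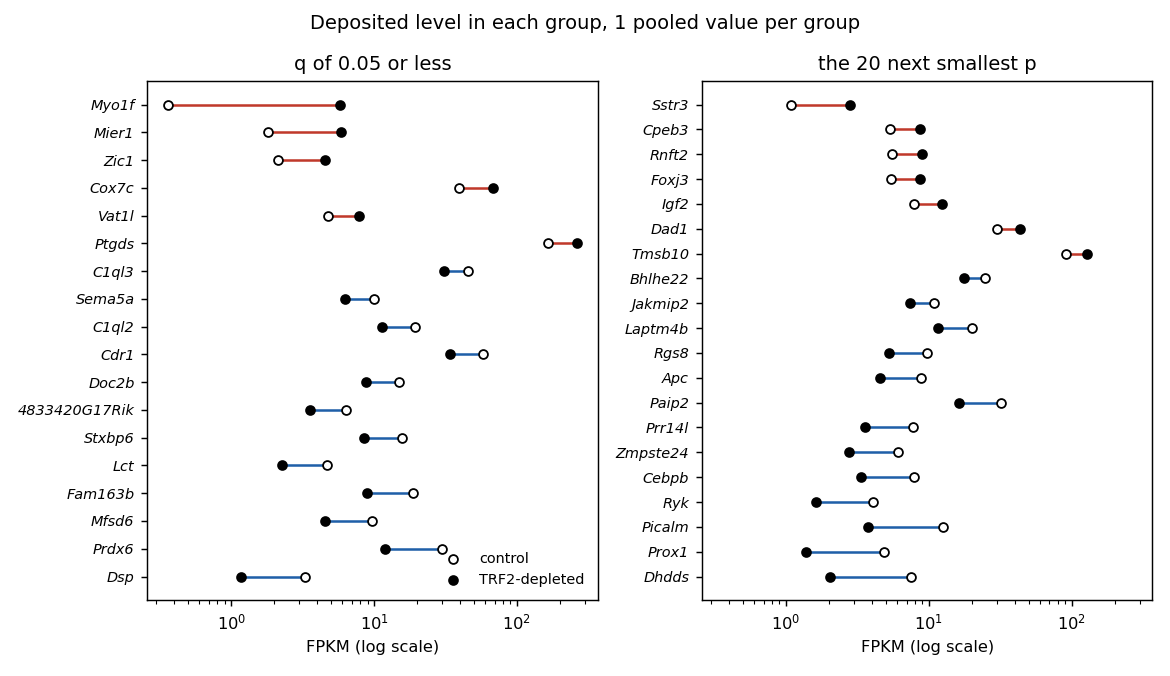
Deposited FPKM (log scale) in control (open) and TRF2-depleted hippocampus (filled), 1 pooled value per group, for the 18 called genes (left) and the 20 genes with the next smallest p (right), joined in red where higher and blue where lower in the TRF2-depleted group. Myo1f shows the widest gap on the left, from 0.360 to 5.75 FPKM, and Prox1, at 4.88 and 1.38 FPKM, lies among the wider gaps on the right.

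The tested markers of meninges and choroid plexus, which border the hippocampus, were higher in TRF2-depleted samples. All 18 measured meningeal fibroblast genes (of 24) were higher, 9 with a deposited p under 0.05 and 1 called, Ptgds. Their median was 0.56 and their summed level 231 against 358 FPKM. Igf2, a growth factor made by leptomeninges, was 7.94 and 12.3 FPKM (p = 0.00025 and q = 0.107 in the authors' deposited table). Dcn, a collagen-binding proteoglycan, was 17.3 and 23.4, and the collagen chain gene Col1a2 was 1.81 and 2.80. All 12 measured choroid plexus genes (of 23) were higher, 5 with p under 0.05 and 0 called, with a median of 0.56. Ttr, the thyroxine carrier that choroid plexus secretes, was 264 and 472 FPKM (p = 0.0088, from the authors' deposited table). Kl, the ageing-related hormone coreceptor klotho, was 5.83 and 7.98 FPKM. The defining genes Otx2 and Aqp1 had no tested row, at 0.636 and 1.21 for Otx2 and at 1.11 and 1.58 for Aqp1. In pericytes and smooth muscle, 6 of 15 genes were measured and all were higher, with a median of 0.40 and p under 0.05 for Acta2 (2.85 and 4.60 FPKM), the smooth muscle actin, and Vtn (11.0 and 15.2), vitronectin. Endothelial genes were mixed: 9 of 14 were higher, and 3 higher and 2 lower had p under 0.05. Markers of other forebrain regions were mixed too. Of 15 measured genes of neocortical layer neurons 8 were higher and 7 lower, with a median of 0.07. Of 8 measured genes of striatal neurons 3 were higher and 5 lower, with a median of -0.12. The 9 striatal members without a tested row were low, and all 9 were higher.

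Thalamic and habenular markers included both Vat1l and Zic1 among 13 measured of 25, with 10 higher, 3 lower and a median of 0.29. Zic2, a relative of Zic1, was 2.87 and 4.56 FPKM with p = 0.00125 in the authors' deposited table. The defining thalamic and habenular factors Gbx2, Pou4f1 and Shox2 were listed at 0 in both groups, and Tcf7l2 was untested at 1.35 and 1.15 FPKM. Since Ptgds belongs to the meningeal list and Zic1 and Vat1l to the thalamic one, the lists were also described without them. Without Ptgds, all 17 meningeal genes were higher, with a median of 0.50 and a summed level of 66.2 against 93.0 FPKM. Without Zic1 and Vat1l, 8 of 11 thalamic genes were higher, with a median of 0.17 and a summed level of 39.97 against 44.0 FPKM. The lower members were Slc17a6, Nwd2 and Plekhg1. The part of neighbouring tissue in these rises and in the dentate result was not tested.

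Genes of mitochondrial respiration were mostly higher, by small amounts. All 16 subunits of ATP synthase were higher, with a median of 0.10 and 1 with p under 0.05, Atp5l (27.3 and 56.8 FPKM). Of 37 complex I subunits 29 were higher, with a median of 0.10 and 3 with p under 0.05, all higher: Ndufa1 (41.6 and 59.9 FPKM), Ndufa2 (36.4 and 50.8) and Ndufa12 (36.7 and 49.8). Of 12 cytochrome oxidase genes, counting the electron carrier Cycs, 11 were higher with a median of 0.22. Cox7c was called, and Cox6a1 (197 and 251 FPKM) and Cox8a (291 and 359) had p under 0.05. Of 13 genes of complexes II and III, 9 were higher and 4 lower with a median of 0.05, and Uqcr11 was higher and Sdhd and Uqcrc2 lower at p under 0.05. Ribosomal proteins, which are likewise short and abundant, had medians of 0.05 for 46 large-subunit and 0.09 for 32 small-subunit genes.

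Ratios also ran with coding length over the 95.96% of genes whose length was known. The median log2 ratio was 0.12 for 184 genes with coding sequences of up to 300 bases, of which 70.1% were higher, and declined with each longer class to -0.06 for 1206 genes over 3000 bases, of which 39.8% were higher. Against genes of like length, 11 of 12 cytochrome oxidase genes were above the median (0.22 against 0.094), as were 25 of 37 complex I genes, 12 of 16 ATP synthase genes, 7 of 13 genes of complexes II and III, 19 of 32 small ribosomal genes and 21 of 46 large ribosomal genes. The genes of like length were all genes of the same length class, with the listed genes left in, so each list enters its own reference. The part of length in the respiratory genes' ratios was not tested. For dentate markers, with a median length of 1833 bases, the median of genes of like length was -0.03, against -0.62 for the markers. For meningeal and choroid plexus markers it was 0.01, and all members measured, 18 and 12, lay above it.

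**Figure D4:**
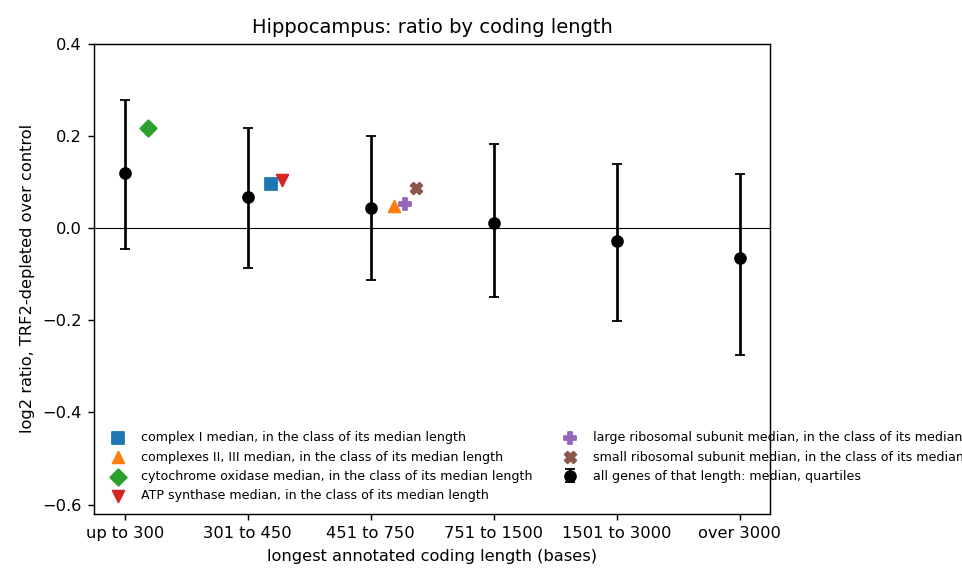
Log2 ratio of TRF2-depleted over control by the longest annotated coding length in bases. Black points and bars are the median and quartiles of all genes in each of 6 length classes, falling from 0.12 to -0.06, and coloured marks are medians of respiratory and ribosomal lists, drawn beside the class of their median length, with cytochrome oxidase at 0.22.

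Genes linked to telomere damage gave no call. With 0.183% of all genes called, no call is an ordinary outcome for lists of this size. Many members had no tested row, 14 of 30 for DNA damage signalling and end joining and 16 of 28 for the cell cycle. Among 16 measured genes of DNA damage signalling and end joining (of 30), 12 were lower, the median was -0.10 and Rad50, of the complex that senses broken ends, had the single p under 0.05 (2.23 and 1.60 FPKM). Among 22 measured p53 targets the median was 0.03, with a single p under 0.05 for the stress gene Gadd45b (4.90 and 6.93 FPKM). Cdkn1a, which encodes the cell cycle inhibitor p21, was 2.58 and 1.79 FPKM (p = 0.0797, from the authors' deposited table), and Bax, the pore-forming apoptosis gene, was 7.31 and 4.25. Of 12 measured cell cycle genes 9 were lower, with a median of -0.23 and p under 0.05 for the replicative helicase subunit Mcm6 (2.70 and 1.72 FPKM) and, in the other direction, the inhibitor Cdkn1c (1.32 and 2.27). Interferon-stimulated and DNA-sensing genes mostly had no tested row, with 9 of 30 measured and a median of 0.27; H2-D1 and B2m, parts of class I antigen presentation, had p under 0.05 at 6.46 and 9.0 and at 41.6 and 51.5 FPKM.

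Just short of the threshold stood 2 genes with a deposited q of 0.0552. Dhdds, an enzyme of dolichol synthesis for protein glycosylation, was 7.47 and 2.05 FPKM, and Picalm, a clathrin assembly protein, 12.6 and 3.77. The sum over 6 rows of Picalm gave a log2 ratio of -0.65 in place of -1.74. Tmsb10, thymosin beta 10, which binds actin monomers, was 91.8 and 128 FPKM with a deposited q of 0.0764. Bhlhe22, a basic helix-loop-helix repressor of neurons, was 24.97 and 17.6 FPKM, and Cebpb, a leucine zipper factor of inflammation, 7.86 and 3.34, both with a q of 0.0919 in the authors' deposited table. Zmpste24, the protease that matures lamin A, was 6.13 and 2.78 FPKM, and Sstr3, a somatostatin receptor of neuronal cilia, 1.09 and 2.79. Of the 20 genes next in order of p, 13 were lower and 7 higher in TRF2-depleted hippocampus. Among the lower was Paip2 (32.0 and 16.3 FPKM), which restrains poly(A)-binding protein in translation. Apc, the scaffold of beta-catenin destruction, was 8.77 and 4.58 FPKM, and the Wnt receptor gene Ryk 4.09 and 1.63, with a log2 ratio of -0.38 over its 3 rows in place of -1.33. Rgs8, a regulator of G protein signalling, Prr14l, the lysosomal membrane gene Laptm4b and Jakmip2 had log2 ratios of -0.89, -1.13, -0.80 and -0.56. On the higher side, Dad1, of the oligosaccharyltransferase, was 30.2 and 43.9 FPKM. Cpeb3, which controls translation at synapses, the forkhead gene Foxj3 and Rnft2 had log2 ratios of 0.71, 0.67 and 0.68, which summed over rows came to 0.18, 0.36 and 0.58.

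Most large ratios had no low p. A ratio past 2-fold was seen in 547 genes, of which 66 had a deposited p under 0.05 and 8 were called, and 213 of them (38.9%, against 21.5% of all genes) had several rows. Below a mean of 3 FPKM, 353 of the 379 genes past 2-fold had a p of 0.05 or more. Among uncalled genes with p under 0.05 and at least 5 FPKM in 1 group, Xpnpep1, an aminopeptidase, had the highest ratio, a log2 of 2.66 (0.988 and 6.25 FPKM), followed by the centriole gene Ccp110 at 2.27 and the semaphorin receptor Plxnb1 at 2.24. Wtap, of the RNA methylation complex, had 1.35 (0.73 with its rows summed) and the diacylglycerol kinase gene Dgkb 1.33. On the lower side, Pde4b, a cyclic AMP phosphodiesterase, had -1.54 in its main row while another of its rows went from 0.00121 to 2.52 FPKM, and the sum over 5 rows gave -0.11. Adnp, a chromatin factor of brain development, had -1.60, and Lhpp, a phosphatase, -1.56. The level was 0 in 1 group for 4 genes, Cept1 and Serpina3n in control and Fam213a and Wscd1 in TRF2-depleted hippocampus, with no p under 0.0972.

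Cortex of the same study served to ask which ratios differ between tissues. Of the 18 called genes 13 were tested in cortex, 7 with the same sign. In cortex Myo1f had a log2 ratio of 1.99 (1.45 and 5.78 FPKM, q = 0.00864 from the authors' deposited table) and Fam163b one of -0.25, the 2 of the 13 with p under 0.05 there. The difference between tissues was tested with a two-sided normal test whose errors were implied by the deposited p, adjusted over 8330 genes, with the tissues treated as independent though they may share animals. It passed for 2 genes (0.024%), Ttr and Tmsb10, and for 0 of the 13 called genes. Those 13 were selected by their hippocampus p, which enters the difference, so their differences are given as a description. For Prdx6 the difference was -1.19 (95% interval -1.93 to -0.45), for Sema5a -0.70 (-1.09 to -0.31) and for Cox7c 0.72 (0.27 to 1.17). For Ptgds it was 0.84 (0.45 to 1.23), with a Benjamini-Hochberg adjusted p of 0.057 by this test. At the smallest deposited p the implied error is an upper bound, so these intervals can be too wide. The dentate list, of which 9 members were tested in cortex, had a median of 0.01 there.

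**Figure D5:**
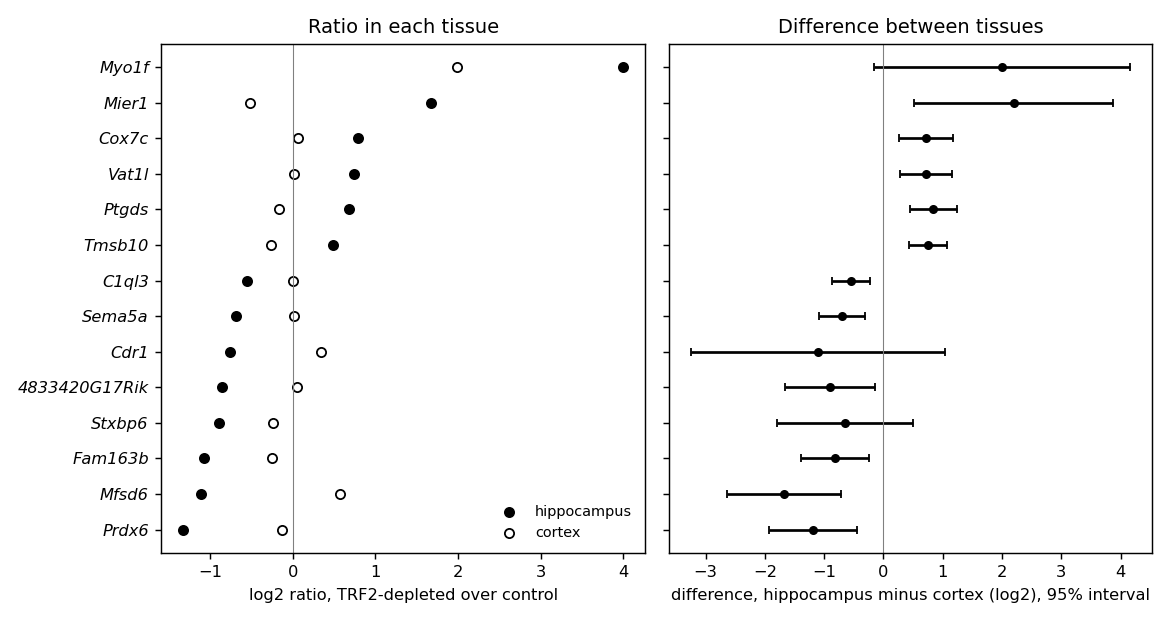
Left, log2 ratio of TRF2-depleted over control in hippocampus (filled) and cortex (open) for the called genes tested in both tissues and for Tmsb10. Right, the difference between tissues with its 95% interval on the log2 scale; it lies below 0 for Sema5a (-0.70) and above 0 for Tmsb10 (0.75), and includes 0 for Myo1f, Stxbp6 and Cdr1.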

How the data were processed

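RNA came from RNeasy columns and libraries from the NEBNext Ultra kit, per the labels' protocols. CASAVA 1.8, TopHat2, Cufflinks and Cuffdiff and the build mm10 are named in the submitters' processing notes; other versions, the settings and the annotation are not stated there. The authors deposited 1 FPKM per group and coding-sequence row, with replicates pooled, with a p-value and a q-value from Cuffdiff, per the file headers. The deposited q-values match Benjamini-Hochberg values over all tested rows of the table to within 5.26e-07. FPKM summed to 168036 in control and 168887 in TRF2-depleted hippocampus, and the read depth is unknown. A further 52696 rows concern a condition that no label describes and were not analysed here, and 25 symbols had been turned into dates.

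No model could be refitted to pooled values. Log2 ratios carry no pseudocount. A call was a q of 0.05 or less. Of the 9824 genes, 2113 had several rows; for those named in the text with a large shift, the sum over rows is given. Locus coordinates count from 1. Named were Terf2, all called genes, the 20 uncalled with the smallest p, the 5 largest rises and falls among uncalled genes with p under 0.05 and 5 FPKM in 1 group (ranked after adding 0.1 FPKM), and, for lists described, some of the 6 members with the smallest p or the most abundant one; any further gene named was picked with its values known. The members and the 50 gene lists were chosen with earlier results of these data known. Coding length is the longest coding sequence in GENCODE vM21, found for 9427 genes. The test between tissues was run on simulated ratios with independent normal errors, the setting that the test itself assumes. That run cannot show how the test behaves where the tissues share animals. Alternatives covered the q threshold, minimum level, minimum fold, pseudocount, centring and sums over rows. Software was Python 3.11.15 with pandas 2.3.3, numpy 2.4.6, matplotlib 3.10.9 and scipy 1.17.1.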

Additional observations from a re-analysis of the deposited data

Results flagged for a closer look

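The log2 ratio of 2 genes differed between hippocampus and cortex in the two-sided normal test, with errors implied by the p-values of the authors and Benjamini-Hochberg adjustment over 8330 genes. For Ttr, the choroid plexus thyroxine carrier, hippocampus minus cortex was 7.18 (95% interval 4.05 to 10.3, adjusted p of 0.0285), with a level of 264 FPKM in control and 472 in TRF2-depleted hippocampus, and of 93.3 and 1.15 in cortex. Its hippocampus log2 ratio alone was 0.84 and was not called (q = 0.603, from the authors' deposited table). Most of the difference of 7.18 thus lay in the lower level of TRF2-depleted cortex. For Tmsb10, the actin monomer binder, the difference was 0.75 (0.43 to 1.07, adjusted p of 0.0285), with 91.8 and 128 FPKM in hippocampus and 109 and 90.9 in cortex. The 12 choroid plexus markers were all higher in TRF2-depleted hippocampus, and the 3 of them tested in cortex were all lower there, with a median of -2.88. The part of choroid plexus tissue in the Ttr difference was not tested.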

How the results depend on the processing

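At a q of 0.01 the count of calls was 0, in both directions and in the dentate, meningeal, thalamic and cytochrome oxidase lists. This is because every call carries the q of 0.0301. The count of 512 genes with an unadjusted p under 0.05 by Cuffdiff does not depend on the q threshold. At a q of 0.1 there were 19 lower calls. With a minimum of 5 FPKM in 1 group, 328 genes had p under 0.05, 148 of them higher, thalamic markers had 1 call and a median of 0.16, and the dentate median was -0.72. Adding 1 FPKM gave medians of 0.44 for the meningeal list and 0.445 for the choroid plexus list. Summing the rows of a gene gave a thalamic median of 0.17 and turned the sign of 5 small medians: -0.0034 for neocortical layer neurons (0.07 otherwise), -0.0156 for glutamate receptors (0.02), 0.12 for C1q-like and cerebellin proteins (-0.19 otherwise), -0.0053 for semaphorins and plexins (0.03) and -0.0405 for desmosome and adherens junction genes (0.10). The difference between tissues had an unadjusted p under 0.05 in 453 genes against 2 after adjustment. The called genes, those next in order of p and the further large ratios, 46 in all, were rerun one by one. With summed rows 0 of them changed sign, a setting that can move only genes with several rows. The reruns with a pseudocount or with centring could not have changed a sign. A pseudocount never turns a ratio around, and centring moved each log2 ratio by 0.0012. Other genes that the text names were not rerun this way. Across settings, 9 of 50 lists changed the sign of their median in some setting, none of them with a median past 0.212. No paired analysis was possible because the deposited tables hold 1 pooled value per group, which carries no replicate number, and for the same reason no sample could be left out. Precision is limited by low levels, and read depth is unknown.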

Other observations

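Other gene groups of neurons held few low p-values and no call beyond those above. Among 40 voltage-gated channel genes the median log2 ratio was -0.03, and a deposited p under 0.05 was held by, among others, the sodium-activated channel gene Kcnt1 (0.784 FPKM in control and 3.25 in TRF2-depleted hippocampus) and the T-type calcium channel gene Cacna1h (6.94 and 4.34). Of 31 glutamate receptor genes 1 had p under 0.05, Grin3a (3.69 and 5.29 FPKM), a modulatory NMDA receptor subunit, whose sum over rows gave a log2 ratio of 0.16 in place of 0.52. Among 25 immediate early genes the median was -0.00, and the single p under 0.05 was that of Egr3. Of 21 circadian clock genes 12 were lower, with p under 0.05 for Bhlhe40 (20.7 and 15.2 FPKM), a repressor of the clock that also answers activity, and Ciart (3.88 and 2.58).

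Most glial lists lay near the median of all genes. Homeostatic astrocytes had a median of 0.09 over 18 genes, oligodendrocyte precursors 0.08 over 12 and myelinating oligodendrocytes 0.06 over 20. Of 20 reactive astrocyte genes 4 were measured, 3 higher and 1 lower, with a median of 0.21 and no p under 0.05. That median was -0.0045 with a minimum of 5 FPKM in 1 group. The lower one was Gfap, the astrocyte filament gene that rises in gliosis, at 60.5 and 53.4 FPKM. Vim, Serping1 and Serpina3n were higher. Of the 16 reactive astrocyte genes without a tested row, 12 were higher and 4 lower. Among 22 heat shock genes the inducible Hspa1a (1.11 and 1.77 FPKM) and Hspa1b (1.37 and 2.46), near-identical copies that share reads, were higher at p under 0.05, and the list's median was 0.06.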
